A study of Homo sapiens with 20 samples.

Results

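The regions described here are 100-kb stretches of the genome that held no H3K27ac peak in rhabdoid tumour cells without SMARCB1 and several peaks once SMARCB1 was induced. Each chromosome of the hg19 build was cut into fixed windows of 100 kb, and a peak was counted in the window where it starts. A window is called filled if at least 5 peaks started in it in each SMARCB1-induced library and 0 in each GFP-induced library. This held for 469 of the 11329 windows that had a peak in any library, or 4.14%. The peak numbers themselves chose these windows, so the share describes the choice and supports nothing.

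The cells were G401, an established human rhabdoid tumour line of the genotype SMARCB1(-/-). Doxycycline induced either GFP, in the control cells, or SMARCB1, so both groups carried the same loss of the endogenous gene and both received the inducer. Of 20 samples in 10 groups, the 4 libraries made with an antibody against H3K27ac were used, 2 GFP-induced and 2 SMARCB1-induced. The samples for H3K4me1, H3K4me3, SMARCA4 and input DNA were not analysed here. The design text calls the assay MNase ChIP-seq, in which an enzyme cuts chromatin between nucleosomes before the immunoprecipitation. The length of induction, the construct and whether the induced cells were 1 clone are not given in the sources used here. Nothing says that the replicates came from separate cultures, so the spread between them may be technical.

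H3K27ac is acetylation of lysine 27 of histone H3, laid down mainly by the acetyltransferases p300 and CBP at active enhancers and promoters. SWI/SNF complexes use ATP to move or evict nucleosomes and so open enhancers, and SMARCB1 is a core subunit that anchors the complex to the nucleosome. Rhabdoid tumours arise after loss of both copies of SMARCB1. Setting both inductions side by side asks where acetylation lies with and without that subunit, and the filled windows are the places where the difference in peak number was between none and several.

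The peak lists carry no read totals. The number of fragments at each summit and the background that the peak caller expected there were recovered from the deposited p-values and fold enrichments. This genome-wide background, a relative measure of depth, stood at 1.82 and 3.74 fragments with GFP (replicates 1 and 2) and at 4.09 and 3.89 with SMARCB1. The lists held 98251 and 79555 peaks with GFP and 145533 and 135472 with SMARCB1. At least 1 peak started in 9194 and 8635 windows with GFP and in 10757 and 10283 with SMARCB1, a difference in means of 1605.5 windows (two-sided exact permutation test, p = 0.33, which 2 libraries against 2 cannot go below). At least 5 peaks started in 5030 and 4463 windows with GFP and in 7020 and 6561 with SMARCB1, a difference of 2044 windows (p = 0.33 in the same exact test). When only peaks with a fold enrichment of at least 4 were counted, the latter difference was 676.5 windows, with GFP replicate 1 above SMARCB1 replicate 2 (two-sided exact permutation test, p = 0.667).

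The filled windows were set beside their opposite. At least 5 peaks in each GFP library and none in either SMARCB1 library were found in 55 windows, called emptied here, or 0.485% of the windows, so the filled windows were 8.53 times as many. They made up 7.45% of the 6297 windows with at least 5 peaks in both SMARCB1 libraries, and the emptied windows 1.31% of the 4211 windows with at least 5 peaks in both GFP libraries. The other ways of splitting the 4 libraries into pairs gave 0 windows in each of their 4 directions (0% of windows). The excess moved when weaker peaks were left out, though not steadily: the strongest 79555 peaks of every list, the length of the shortest, gave 240 filled and 70 emptied windows, the strongest 40000 gave 130 and 42, the strongest 20000 gave 30 and 21, and the strongest 10000 gave 7 and 1. Shorter lists also hold stronger peaks, so length and strength cannot be told apart.

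Single libraries were also compared in pairs. By the rule, every filled window counts in each SMARCB1-over-GFP pair, and every emptied window in each reverse pair. No such window can count in a pair within a group, so these numbers are no separate support. At least 5 peaks with SMARCB1 and none with GFP were found in 917 windows (8.09%) for SMARCB1 replicate 1 over GFP replicate 2, 692 (6.11%) for replicate 1 over replicate 1 and 542 (4.78%) for SMARCB1 replicate 2 over GFP replicate 1. In the reverse direction the windows numbered 67 (0.591%) for GFP replicate 2 over SMARCB1 replicate 1, 76 (0.671%) for replicate 1 over replicate 1 and 102 (0.9%) for GFP replicate 1 over SMARCB1 replicate 2. Within a group, 24 windows (0.212%) had at least 5 peaks in GFP replicate 1 and none in GFP replicate 2, and 2 windows (0.0177%) had them in SMARCB1 replicate 1 and none in SMARCB1 replicate 2. The 2 reverse comparisons within groups gave 0 windows. GFP replicate 2 and SMARCB1 replicate 2 had nearly the same background, 3.74 and 3.89 fragments, and between them 718 windows (6.34%) were empty with GFP and 89 (0.786%) were empty with SMARCB1. Their lists still differed in length, with 79555 and 135472 peaks, and the part of depth was not tested. The bar chart of library pairs shows that every SMARCB1-over-GFP pair lay above every other pair.

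**Figure D1:**
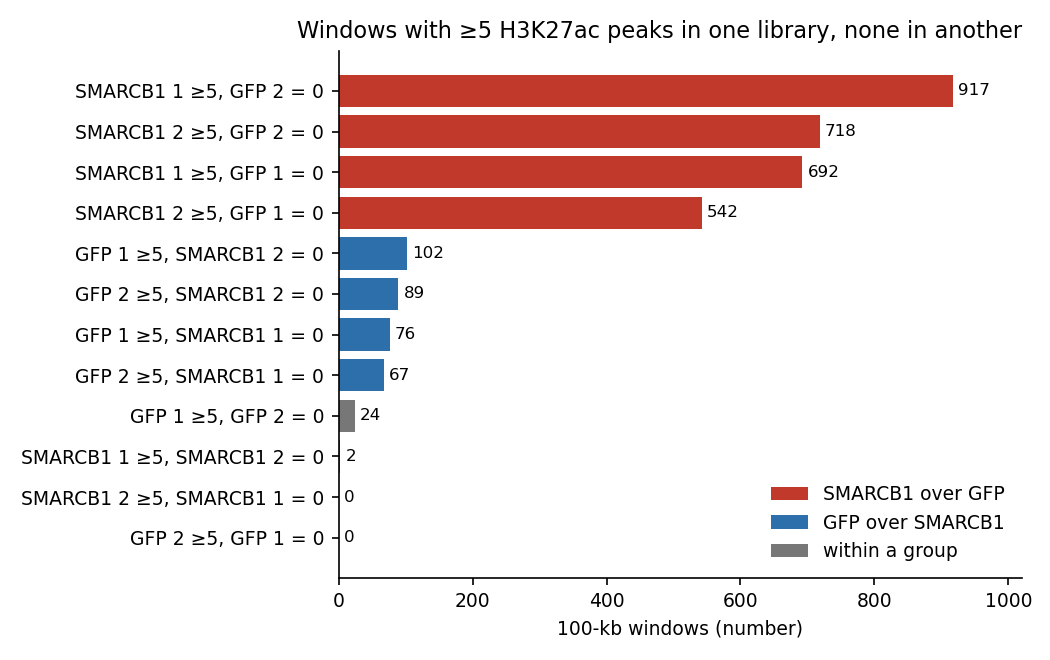
Number of 100-kb windows (horizontal axis) with at least 5 H3K27ac peaks in one library and 0 in another, for all 12 ordered pairs of the 4 libraries. The 4 pairs with SMARCB1 over GFP (red) reached 542 to 917 windows, the 4 with GFP over SMARCB1 (blue) 67 to 102, and the 4 pairs within a group (grey) 0 to 24.

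Windows were also chosen on 1 library of each group and read in the other libraries, as a description of the replicates. Every filled window is in each of these choices, since the rule used all 4 libraries. The shares are therefore not independent of the rule and support nothing further. Windows were chosen on SMARCB1 replicate 1 and GFP replicate 1 alone, which gave 692. All 692 had a peak in SMARCB1 replicate 2, and 496 (71.7%) had at least 5, against 57.9% of all windows. GFP replicate 2 had no peak in 658 of them (95.1%), against 23.8% of all windows. SMARCB1 replicate 2 exceeded GFP replicate 2 in 691 of the 692 windows and equalled it in the remaining 1. When 718 windows were chosen on SMARCB1 replicate 2 and GFP replicate 2, SMARCB1 replicate 1 had at least 5 peaks in 668 (93%, against 62% of all windows) and exceeded GFP replicate 1 in all 718. GFP replicate 1 had no peak in 511 of these (71.2%, against 18.8% of all windows) and at least 5 in 16. The crossed choice on SMARCB1 replicate 1 and GFP replicate 2 gave 917 windows and was less uniform. In it SMARCB1 replicate 2 exceeded GFP replicate 1 in 901 windows, equalled it in 6 and fell short of it in 10, and GFP replicate 1 had at least 5 peaks in 20. The other crossed choice gave 542 windows, in all of which SMARCB1 replicate 1 exceeded GFP replicate 2. GFP replicate 1 thus had peaks in windows where GFP replicate 2 had none. The background of GFP replicate 1 was the lower, and the part of depth in these windows was not tested. All windows include those with few peaks in either replicate, so they are a loose standard for these shares. Of the 7020 and 6561 windows with at least 5 peaks in SMARCB1 replicates 1 and 2, 6297 had at least 5 in both. Each of those is a larger share than in the choices made on the same SMARCB1 replicate. The shares without a GFP peak were not set against windows empty in 1 GFP library.

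Emptied windows were read in the same way, and every emptied window is likewise in each of the choices. Of 76 windows chosen on GFP replicate 1 and SMARCB1 replicate 1, GFP replicate 2 had at least 5 peaks in 57 (75%, against 39.4% of all windows) and any peak in 74. SMARCB1 replicate 2 had none in 71 (93.4%, against 9.23% of all windows) and exceeded GFP replicate 2 in 2. Of 89 windows chosen on GFP replicate 2 and SMARCB1 replicate 2, GFP replicate 1 had at least 5 peaks in 75 (84.3%, against 44.4%) and exceeded SMARCB1 replicate 1 in all 89. SMARCB1 replicate 1 had none in 65 of them (73%, against 5.05%). The crossed choices gave 67 windows, in all of which GFP replicate 1 exceeded SMARCB1 replicate 2, and 102 windows, in 97 of which GFP replicate 2 exceeded SMARCB1 replicate 1. Here too all windows are a loose standard. Of the 5030 and 4463 windows with at least 5 peaks in GFP replicates 1 and 2, 4211 had at least 5 in both. Each is a larger share than in the choices made on the same GFP replicate.

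The filled windows held 6276 peaks in SMARCB1 replicate 1 and 5687 in SMARCB1 replicate 2, or 4.31% and 4.2% of the 2 lists. A window had from 5 to 68 peaks with a median of 10 in replicate 1, and from 5 to 61 with a median of 9 in replicate 2. Replicate 1 had more peaks in 266 windows, replicate 2 in 127, and 76 windows had equal numbers. Across the 469 windows the peak numbers of both replicates had a Spearman rho of 0.843, a description only, since the windows share their libraries and the rule cut off low numbers. The scatter plot of peak numbers shows windows with many peaks in one replicate to have many in the other.

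**Figure D2:**
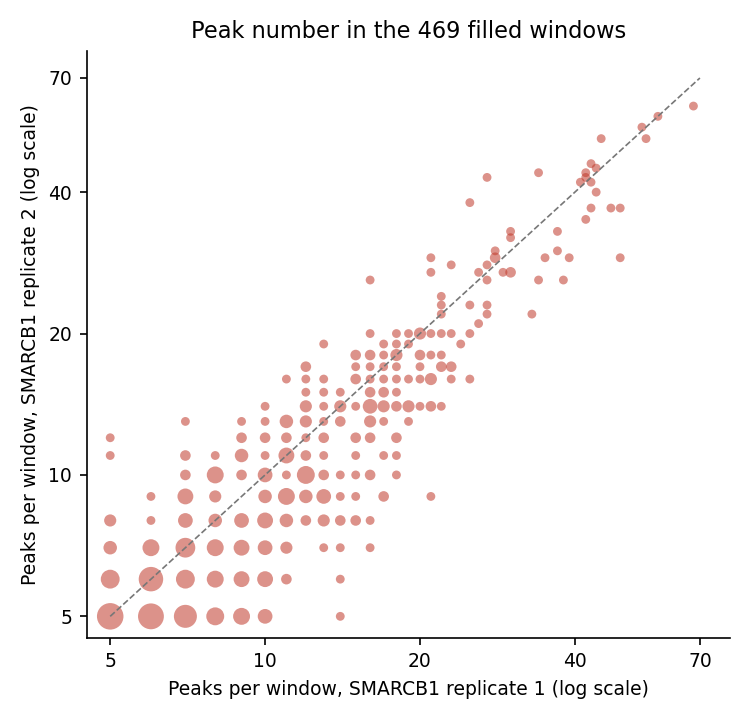
Number of H3K27ac peaks per filled window in SMARCB1 replicate 1 (horizontal, log scale) and SMARCB1 replicate 2 (vertical, log scale). Larger circles stand for more windows with the same pair of numbers, and the dashed line marks equality. The windows run from 5 peaks to 68 in replicate 1 and 61 in replicate 2, with medians of 10 and 9.

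Among the 2039 windows without a GFP peak, the lower of the SMARCB1 peak numbers was 0 in 520, 1 in 468, 2 in 261, 3 in 195 and 4 in 126. It was 5 in 90 windows, which lie just inside the rule, and at least 10 in 199 and at least 20 in 55 of the filled windows. Just outside the rule on the other side lay 134 windows with at least 5 peaks in both SMARCB1 libraries and a single GFP peak. That peak was in GFP replicate 1 in 109 of them and in GFP replicate 2 in 25. Their median peak numbers were 12 and 10 in SMARCB1 replicates 1 and 2, close to those of the filled windows, so the border between filled and other windows was often set by a single GFP peak.

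By their medians, the peaks in these windows had close to the fold enrichment of their whole lists at a smaller width. Fold enrichment is the deposited value of the authors' peak caller, the height of the summit over the background. Its median was 3.56 in SMARCB1 replicate 1 and 3.67 in SMARCB1 replicate 2 inside filled windows, against 3.72 and 3.68 over the whole lists. The median width was 378 and 337 bp, against 402 and 379 bp. The median summit held 22 and 18 fragments, the same medians as in the whole lists. A peak of the other SMARCB1 replicate overlapped 60.1% of the replicate 1 peaks and 76.4% of the replicate 2 peaks in filled windows, where the whole lists gave 62.7% and 80.5%.

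The number of filled windows was also counted with weaker SMARCB1 peaks left out and every GFP peak kept. The first cut was a fold of 2.83, the lowest of a peak at the genome-wide background in GFP replicate 1, used as a filter and not as a comparison of the lists. It was met by 91.6% and 92.4% of the peaks in filled windows and by 90.8% and 92.3% of all SMARCB1 peaks, so the shares in filled windows were near those of the whole lists. Under it 426 of the 469 windows met the rule. With a -log10 q of at least 5 asked of the SMARCB1 peaks, 178 did. Folds of lists called separately are not on 1 scale, and whether such peaks would have been called in the GFP libraries was not tested.

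Acetylation in a filled window usually came as several clusters of closely spaced peaks. The median distance between neighbouring peaks of a window was 478 bp in replicate 1 and 536 bp in replicate 2, taken as the median over windows. From the first to the last peak of a window, the median span was 54303 and 49658 bp. Joining peaks within 1 kb left a median of 5 clusters per window in replicate 1 and 4 in replicate 2, with at most 19 in each. A single cluster remained in 18 and 19 windows. The 3909 windows with at least 5 peaks in every library had a median of 7 clusters in both SMARCB1 replicates. The emptied windows had a median of 3 in both GFP replicates. At least 5 clusters were found in 237 and 213 filled windows, and in 2964 and 2931 of the 3909. Several clusters per window were thus not particular to filled windows. Counted as such clusters rather than as peaks, 178 of the 469 windows still had at least 5 in both SMARCB1 libraries.

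Peaks covered little of most filled windows and much of a few. The covered length had a median of 5504 bp in replicate 1 and 4121 bp in replicate 2, and reached 75187 and 71239 bp. Over all filled windows the peaks covered 3.83 and 2.98 Mb. The highest fold enrichment of a window had a median of 6.57 and 5.73 and ranged from 3.05 to 15.8 in replicate 1 and from 3.14 to 14.6 in replicate 2.

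Few of the peaks in these windows had been set aside as lying at transcription start sites. The authors' tables of stitched regions join neighbouring peaks away from such sites, per their headers, so a peak outside every stitched region is one that was set aside. This measures peaks and not promoters, and the rule itself leaves out every window with a peak at a start site in a GFP library. In filled windows 97.9% of the replicate 1 peaks and 97.6% of the replicate 2 peaks lay inside a stitched region. Over the whole lists it was 86.5% and 85%, and in the 3909 windows with at least 5 peaks in every library 88.1% and 86.9%. A stitched region can span a set-aside peak, so these shares are upper limits for peaks away from start sites. No peak outside the stitched regions was found in 398 filled windows (84.9%) in either SMARCB1 library, and in 46 windows both libraries had one. In the windows with at least 5 peaks in every library, 64% and 65.3% had such a peak in SMARCB1 replicates 1 and 2, against 13.4% and 11.5% of the filled windows. In emptied windows, 92.3% and 91.5% of the GFP peaks lay inside a stitched region, against 79.7% and 77.3% of the whole GFP lists. In the windows with at least 5 peaks in every library it was 84.7% and 83.3% of the GFP peaks. A GFP peak outside the stitched regions was found in 29.1% and 25.5% of the emptied windows. In the windows with at least 5 peaks in every library, 65.1% and 63.8% had such a GFP peak. The trait was thus not particular to the filled windows.

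**Figure D3:**
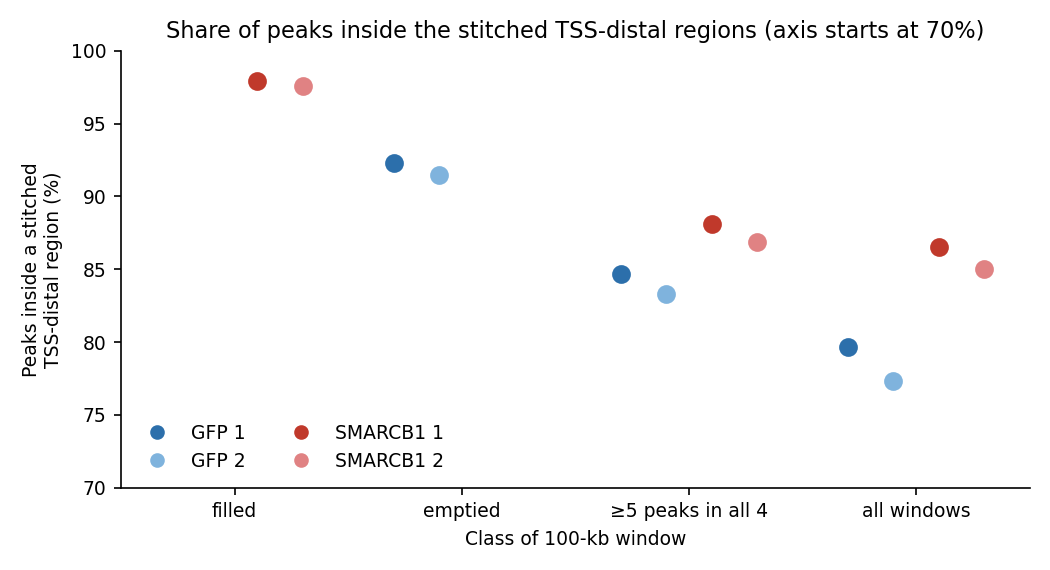
Share of peaks inside the authors' stitched regions away from transcription start sites (vertical axis, percent, starting at 70%) for 4 classes of 100-kb window, 1 point per library. The filled windows have 97.9% and 97.6% in the SMARCB1 libraries, above the 88.1% and 86.9% of the same libraries in windows with at least 5 peaks in all 4 libraries. The emptied windows have 92.3% and 91.5% in the GFP libraries, above the 84.7% and 83.3% of those libraries in the same windows. A class without peaks in a library has no point for it.

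Stitched regions were found in 468 and 467 of the 469 windows. The longest one touching a window had a median length of 17.4 and 14.7 kb and reached 348 and 377 kb, so some filled windows were the middle of acetylated blocks longer than themselves. The largest by number of peaks lay on chromosome 3 from 171752627 to 172090650 with 230 peaks in replicate 1, and nearly the same interval held 229 peaks in replicate 2. A region that the authors' tables marked as a super-enhancer touched 150 filled windows (32%) in replicate 1 and 104 (22.2%) in replicate 2. The shares of emptied windows were near these, with 17 (30.9%) in GFP replicate 1 and 14 (25.5%) in GFP replicate 2. The share over all windows was not counted, so none of these shares can be called high or low. These marks follow a signal that regions with the same ID share in the tables, and they are given as deposited.

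The 10 windows with the most peaks are given next by the lower peak number of both SMARCB1 libraries, and each had 0 peaks in both GFP libraries. No hg19 annotation or sequence was used here, so no genes are named. The first, on chromosome 3 from 171900001 to 172000000, had 68 peaks in SMARCB1 replicate 1 and 61 in SMARCB1 replicate 2, which covered 43.3 and 32 kb. It is the middle of the stitched block named above, and GFP peaks lay on both sides of the window, 165 kb apart. Those GFP peaks lay within the span of the block, so parts of the block had H3K27ac peaks with GFP too. The strongest shared peak of the window was modest, with a fold enrichment of 5.57 and 5.53.

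The second, on chromosome 10 from 78900001 to 79000000, had 58 peaks in both replicates and lay in a stretch of 1990 kb without a GFP peak. The third, on chromosome 18 from 56200001 to 56300000, had 54 and 55 peaks. Its strongest peak, from 56242994 to 56252118, had a fold enrichment of 15.5 and 13.9 with 91 and 67 fragments at the summit. This is among the strongest peaks of all filled windows, which reached a fold of 15.8 and 14.6.

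Both of the next lay on chromosome 6. One, from 158800001 to 158900000, had 55 and 52 peaks with GFP peaks 179 kb apart around it. The other, from 142600001 to 142700000, had 45 and 52 peaks and was the most densely covered of the 10, with 75.2% and 71.2% of its sequence under peaks. Its strongest peak, between 142625908 and 142637233, rose to a fold of 15.3 and 14.6, or 90 and 83 fragments at the summit. The nearest GFP peak lay 131 kb from the edge of this window.

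Chromosome 3 held the sixth window, from 67500001 to 67600000 with 44 and 45 peaks, and the seventh, from 99700001 to 99800000 with 43 and 46. The eighth, on chromosome 7 from 107600001 to 107700000, had 42 and 44 peaks and a strongest peak of fold 15.8 and 13.7, from 107636154 to 107645095. In replicate 1, but not in replicate 2, no other of the 10 windows had a best shared peak of higher fold. The ninth, on chromosome 13 from 95700001 to 95800000, had 42 and 43 peaks, and the tenth, on chromosome 15 from 37200001 to 37300000, had 43 and 42 with a highest shared fold of 5.23 and 5.53. Over the 10 windows the fold of the best shared peak in replicate 1 ran from 5.23 to 15.8.

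**Figure D4:**
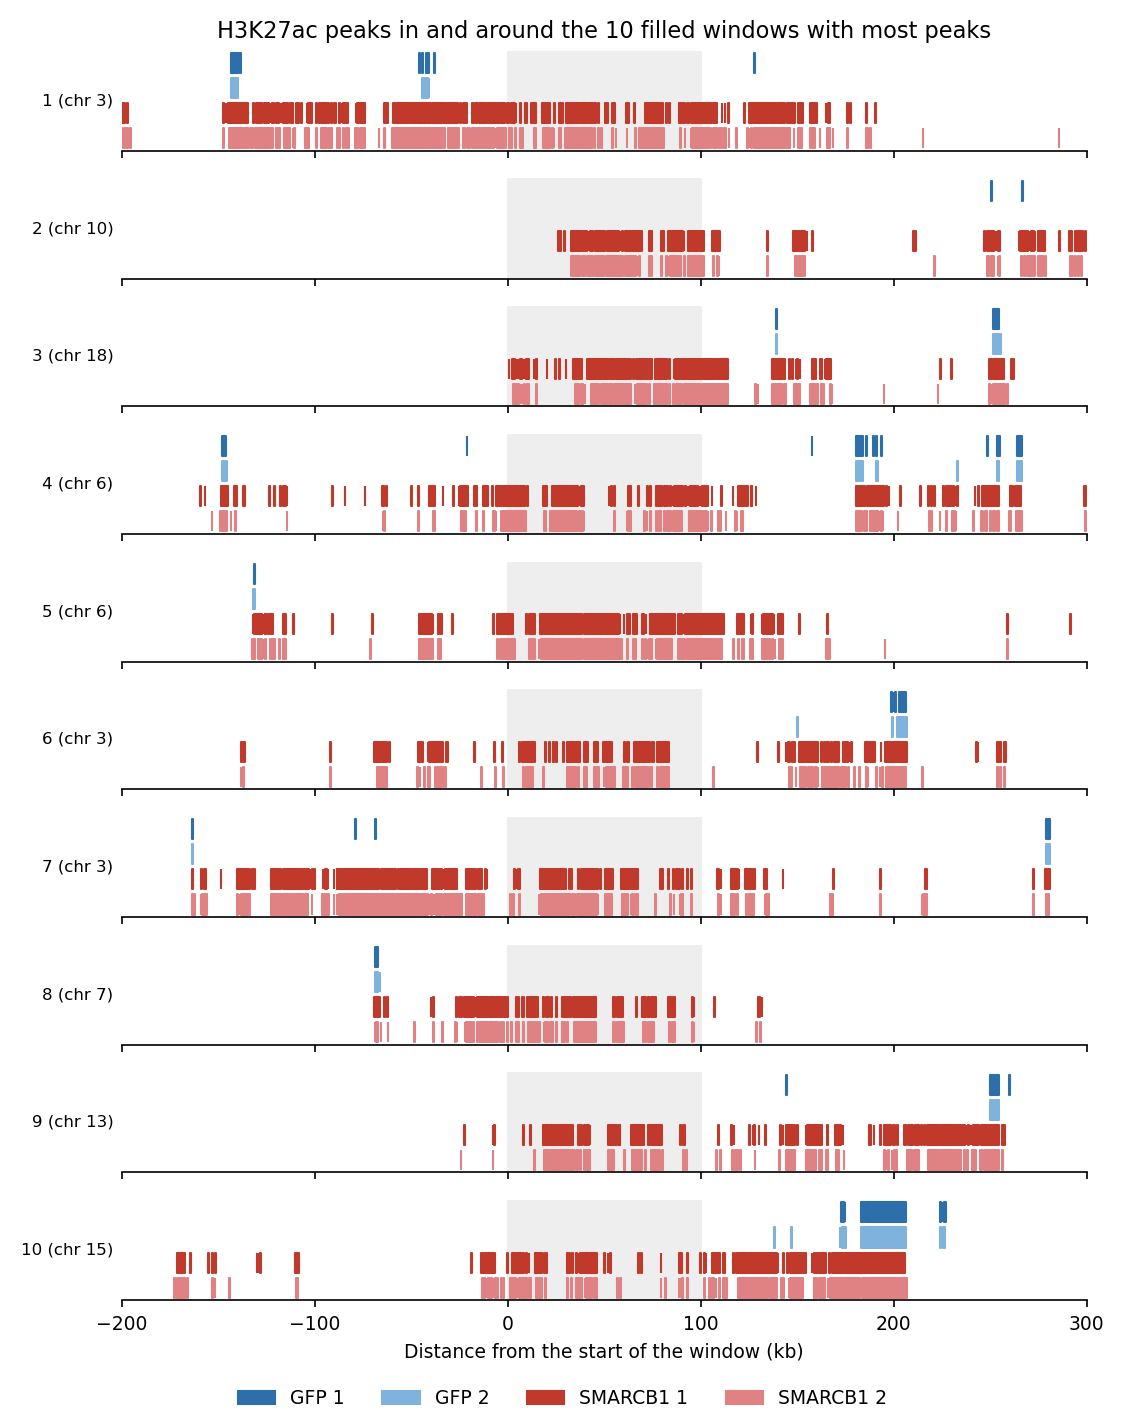
H3K27ac peaks of the 4 libraries in the 10 filled windows with the most peaks, 1 panel per window, against distance from the window's start in kb. Each bar is a peak, drawn at least 0.4 kb wide, and the grey band is the 100-kb window. GFP peaks (blue) are absent from every band, while SMARCB1 peaks (red) form dense clusters that in most panels run past its edges.

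Some filled windows lay side by side, and so did some emptied ones. Among the 55 emptied windows 37 stood alone, beside 5 pairs, 1 run of 3 and 1 run of 5. Of the 469 filled windows, 335 stood alone and 134 were next to another filled window: 38 pairs, 18 runs of 3 and 1 run of 4. The windows on either side of each filled one gave 938 flanks, in which a window can count more than once. Of these flanks, 45.4% had a GFP peak and 20.3% had SMARCB1 peaks alone but did not meet the rule. A further 17.9% had no peak in any library and 16.4% were filled themselves. A GFP peak within 10 kb of the window's edge was found for 85 windows, and in 3 windows a GFP peak that started outside reached in.

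The run of 4 lay on chromosome 7 from 127300001 to 127700000, with 125 peaks in SMARCB1 replicate 1 and 105 in SMARCB1 replicate 2 and none in the GFP libraries. By the lower of both libraries, the run of 3 with the most peaks was on chromosome 6 from 142500001 to 142800000, with 83 and 85, and it holds the most densely covered of the windows named above. The widest coverage was on chromosome 3 from 173800001 to 174100000, where 68 and 107 peaks covered 166 and 155 kb of the 300 kb. The smaller number of peaks in replicate 1 at nearly the same coverage shows that its peaks there were wider, and that a peak number is not a measure of acetylated length.

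Further runs of 3 with at least 50 peaks in both SMARCB1 libraries were found in 5 places. Chromosome 15 held 68 and 66 peaks between 37000001 and 37300000. Chromosome 1 held 61 and 62 between 211000001 and 211300000, and chromosome 7 held 63 and 57 between 84100001 and 84400000. Chromosome 18 held 60 and 50 between 300001 and 600000, and chromosome 6 held 51 and 50 between 1700001 and 2000000. The next group had 39 to 64 peaks per library. Its 4 runs began at 189400001 on chromosome 2, at 140800001 on chromosome 7, at 1300001 on chromosome 12 and at 59400001 on chromosome 15, and ended at 189700000, 141100000, 1600000 and 59700000.

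The remaining runs had between 18 and 40 peaks per library. They were on chromosome 7 from 83600001 to 83900000, chromosome 18 from 37000001 to 37300000, chromosome 6 from 20700001 to 21000000, chromosome 10 from 52900001 to 53200000, chromosome 5 from 72900001 to 73200000, chromosome 13 from 63200001 to 63500000 and chromosome 2 from 220800001 to 221100000. The 19 runs thus differed widely, from 18 to 105 peaks in the library with fewer.

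How far GFP-induced cells lacked peaks around a filled window varied. The distance between the GFP peaks on either side had a median of 485038 bp, and the shortest was 102757 bp. It was at least 500 kb for 225 windows (48%) and at least 1 Mb for 129 (27.5%). Around emptied windows, the distance between the SMARCB1 peaks on either side had a median of 642296 bp. It was at least 500 kb for 29 of them (52.7%) and at least 1 Mb for 20 (36.4%). Gaps in the assembly and centromeres, which can hold no peak, were not removed from these distances. From a SMARCB1 peak in a filled window to the nearest GFP peak, the median distance was 96055 bp in replicate 1 and 96887 bp in replicate 2, and 78.4% and 78.7% of the peaks were more than 50 kb away. Over the whole SMARCB1 lists, 6.44% and 5.66% of peaks were that far from a GFP peak. The rule lets no GFP peak start in a filled window, so this difference follows from the choice. In emptied windows, 86.4% and 86.2% of the peaks in GFP replicates 1 and 2 were more than 50 kb from a SMARCB1 peak.

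The filled windows with a GFP peak on both sides fell into 363 such stretches. One filled window was found in 292 of these, 2 in 48 and 3 or more in 23. The stretch with the most, 8, lay on chromosome 7 from 83279488 to 86781230, a length of 3.5 Mb. It held 132 peaks in SMARCB1 replicate 1 and 119 in SMARCB1 replicate 2, and includes 2 of the runs of 3. These peaks lay in 13 windows in each library, while 34 whole windows fit in the stretch, so SMARCB1 peaks were gathered in part of it. On chromosome 1 from 210614294 to 211306766, 692 kb without a GFP peak held 5 filled windows. There 95 and 94 peaks lay in 8 windows in each library, those cut by the ends of the stretch included.

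Chromosomes differed in how often their windows were filled. All 24 chromosomes had peaks, and 23 had a filled window. The highest shares were on chromosome 18, with 19 of 223 windows (8.52%), and chromosome 13, with 26 of 342 (7.6%). Chromosomes 10 (6.18%) and 7 (5.92%) came next. The lowest share among chromosomes with a filled window was on chromosome 19, with 2 of 428 (0.467%), followed by chromosome 22 with 4 of 237 (1.69%). Among windows with at least 5 peaks in both SMARCB1 libraries, 18.4% were filled on chromosome 13, 15.4% on chromosome 18 and 0.687% on chromosome 19. The largest number, 53, was on chromosome 2. These shares describe 1 cell line, and the number of copies of each chromosome was not tested.

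**Figure D5:**
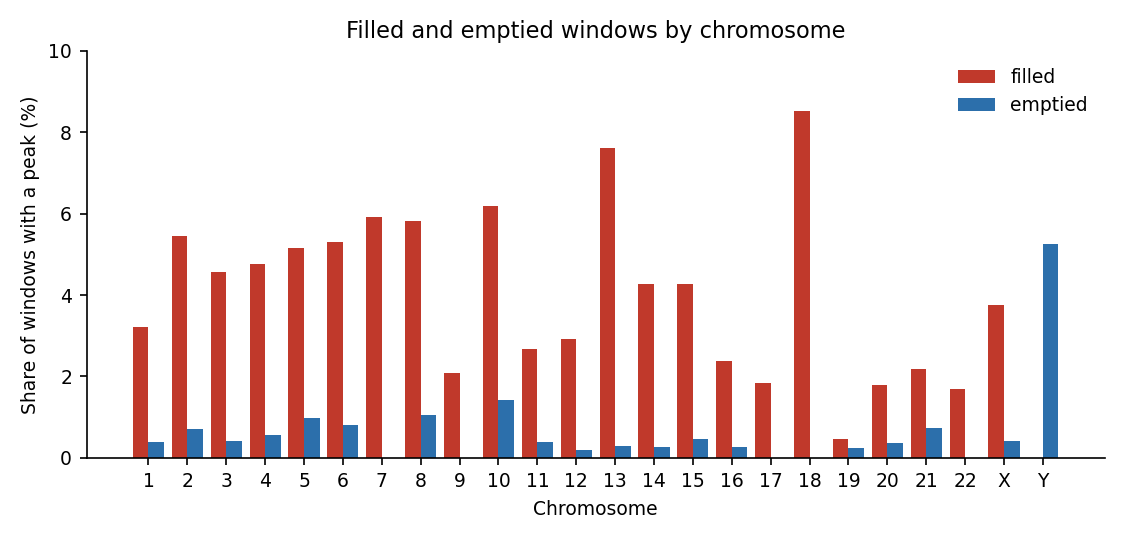
Share of the 100-kb windows with a peak in any library (vertical axis, percent) that were filled (red) or emptied (blue), by chromosome. Filled windows reach 8.52% on chromosome 18 and 7.6% on chromosome 13 and 0.467% on chromosome 19, and chromosome Y, with 38 windows, has 2 emptied and no filled ones.

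The emptied windows had peak numbers of the same order. In GFP replicate 1 they held 5 to 53 peaks with a median of 10, and in GFP replicate 2 they held 5 to 55 with a median of 7. Their highest fold enrichment had a median of 9.21 and 6.27 and reached 26.6 and 19.5. The GFP and SMARCB1 lists were called separately, so these folds are not set against those of the filled windows. The most peaks, 53 and 55, were on chromosome 1 from 46900001 to 47000000. The strongest peak lay in the next, on chromosome 8 from 132800001 to 132900000, which had 32 and 33 peaks. Another 47 and 31 peaks started on chromosome 2 between 204900001 and 205000000, 40 and 30 on chromosome 10 between 54400001 and 54500000, and 30 and 29 on chromosome 6 between 112600001 and 112700000.

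The longest run of either kind was emptied: 5 windows on chromosome 10 from 54100001 to 54600000, singled out after its values were seen, with 85 and 71 GFP peaks that covered 129 and 127 kb. The local background also differed between both kinds of window. It stood above the genome-wide value for 25.8% and 26.7% of the peaks in filled windows, against 33.9% and 33.2% of the whole SMARCB1 lists. In emptied windows it did so for 62.9% and 65.9% of the GFP peaks, against 45.2% and 44% of the GFP lists. The part of this background in either set of windows was not tested.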

How the data were processed

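MACS2 peaks were called on each library against hg19 and filtered by the authors, as the deposited peak names and file tags show. The rule of the filter and the control are not given in the sources used here. BWA 0.7.12-r1039, SAMtools and bedtools appear in the submitters' processing notes. For each peak the authors deposited a fold (the ratio of its summit to the background), a -log10 p and a -log10 q. The stitched-region tables are from ROSE, per the file headers. Each was assigned through its name (induced gene, replicate), and 100% of their region starts and ends were in the matching peak list. A further 4 columns of read files matched no sample and were not used.

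Peaks were counted by their start in windows of 100 kb, and overlap was counted from 1 bp. Fragments and background were solved from fold and -log10 p within 0.001. The fragments of SMARCB1 replicate 1 needed a scale of 0.855, with a background of 4.79 before scaling. Library values were compared with an exact permutation test. The counting and the recovery were tested on simulated data. Windows named are the 10 filled and 5 emptied ones with the highest lower peak number and every filled run of at least 3. The strongest peak is the shared one with the highest lower fold. The windows, lists and tests were chosen with earlier results of these data known. Planned gene names, sequences and motifs were left out, as no hg19 reference was used. Software: scipy 1.17.1, numpy 2.4.6 and pandas 2.3.3 on Python 3.11.15, with plots by matplotlib 3.10.9.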

Additional observations from a re-analysis of the deposited data

How the results depend on the processing

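Filled windows outnumbered emptied ones in every setting tried. From 469 filled and 55 emptied, the counts moved to 178 and 26 when a -log10 q of at least 5 was asked where peaks are required, 178 and 34 at a fold of at least 4, 755 and 95 in windows of 50 kb, 246 and 24 in windows of 200 kb, 790 and 95 with at least 3 peaks, 199 and 17 with at least 10, and 181 and 16 with peaks joined within 1 kb. A -log10 q of at least 5 in every library gave 260 filled and 43 emptied, and lists of equal length gave 240 and 70. The strongest 40000, 20000 and 10000 peaks, chosen after seeing the data, gave 130, 30 and 7 filled and 42, 21 and 1 emptied. Fewer peaks and other window sizes change the counts by construction. Of the 30 filled windows of the 20000-peak lists, 15 were among the 469. Shifting the windows by 50 kb, placing peaks by summit or asking that no base be covered moved neither count by over 1.5 times. Without 1 library the filled windows numbered 496 to 668 and the emptied 57 to 75, and the differences in windows per library ranged from 1326 to 1885 for 1 peak and from 1760.5 to 2327.5 for 5. With the replicate number as a block, the differences were 1605.5 and 2044 windows by construction. The pair differences were 1563 and 1648, and 1990 and 2098 (exact sign-flip test, two-sided, p = 0.5, the smallest 2 pairs allow). No label ties a number to a shared batch, so the numbers are not taken as pairs. Depth was lowest in GFP replicate 1, and a window without a GFP peak is one where none was called, not one shown to lack acetylation.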
